A study of Homo sapiens and Mus musculus with 36 samples.

Results

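The 10 genes described here are targets of the tumour suppressor p53: MDM2, CDKN1A, GADD45A, BTG2, SESN1, FAS, AEN, TP53I3, FDXR and ZMAT3. The rule picks them by symbol and uses no measured value, though the list was drawn up with earlier results of these data known. They stand among 43561 gene symbols listed across 13 deposited comparison tables, where human and mouse spellings count apart. Each table lists 15208 to 19329 genes. All 10 have a row in the 8 HepG2 tables, 9 in the 2 Huh7 tables, which have no FAS row, and 9 in the 3 WEHI-231 tables, which have no row for a mouse form of TP53I3.

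RNA was sequenced in 36 libraries, 18 groups of 2, from 2 human liver cancer cell lines, HepG2 and Huh7, and from WEHI-231 cells, a B-lymphoma line from mouse. HepG2 cells received 5 µM of MS7126, C24, MS7126N1 or MS7126N2, against DMSO, for 48 h. Huh7 cells received 5 µM of MS7126 against DMSO, for 24 h by their own labels, while the labels of the mouse libraries give 48 h for that line. WEHI-231 cells received 1 µM of MS8815, EPZ-6438 or MS8815N, against DMSO, for 16 h. MS7126 and MS8815 are PROTACs against EZH2, molecules built to have this histone methyltransferase of the Polycomb complex PRC2 degraded. C24 and EPZ-6438 are named as the matched inhibitors of its enzymatic activity, and MS7126N1, MS7126N2 and MS8815N as analogs that are not PROTACs. Stable hairpin lines were made with a puromycin-selected pLKO.1 lentivirus: HepG2 and Huh7 with shEZH2, and HepG2 with the shSREBP2 hairpins #664, #665 and #667 against SREBP2, the factor of cholesterol synthesis encoded by SREBF2. Their shControl is given as a scramble hairpin in one set of labels and as an empty vector in another. The labels do not say whether libraries of one group are separate cultures; the spread behind each p-value may then be purely technical.

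In unstressed cells p53 is kept low by MDM2, a ubiquitin ligase that marks it for degradation and that is itself a p53 target, which closes a negative feedback loop. After DNA damage or other stress p53 accumulates, binds paired copies of a decamer in DNA and raises transcription of genes for cell cycle arrest, repair, metabolism and apoptosis. Several p53 targets are also driven by other stress pathways, such as the ATF4 pathway of amino acid shortage and unfolded protein, so a higher target RNA is not by itself a measure of p53.

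To show what p53 can read near these genes, RefSeq promoter windows of GRCh38.p14 were searched for a full p53 site. Each window runs from 250 bases before a start to 50 after it. A full site was taken as 2 p53 consensus decamers with 0 to 13 bases between them and at most 3 mismatches over 20 bases, with the core C and G of each decamer kept. The decamer reads the same on both strands. Of the 10 genes, 9 have windows in the RefSeq table, 18 in all; 7 of these 18 windows, from 6 genes, held a full site. Among all 34943 windows, 12.8% did. The MDM2 windows that held a site overlap and hold the same one, so it is counted more than once. The best match of each of the 6 genes is shown, with the decamers in capitals. A link between sites and responses was not tested. AEN at chr15:88621306-88621325 (plus strand) and ZMAT3 at chr3:179071867-179071892 (minus) lie in an untranslated exon of a GENCODE transcript, as does FDXR at chr17:74872996-74873025 (minus). MDM2 at chr12:68808923-68808942 (plus) lies in an intron, before the inner of its promoters.
AEN: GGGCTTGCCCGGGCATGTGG
MDM2: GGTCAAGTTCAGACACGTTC
FDXR: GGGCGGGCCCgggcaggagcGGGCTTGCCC
ZMAT3: GGGCCTGCTCcgccaaGCACATGCGC
The AEN, MDM2 and FDXR matches had 2 mismatches and the ZMAT3 match 3. For FAS and SESN1 the whole stretch of 250 bases before a start is shown, with the site in capitals, because it lies in an intron of each gene. FAS is at chr10:88991181-88991430 (plus strand, 2 mismatches) and SESN1 at chr6:109008989-109009238 (minus strand, 3 mismatches).
FAS: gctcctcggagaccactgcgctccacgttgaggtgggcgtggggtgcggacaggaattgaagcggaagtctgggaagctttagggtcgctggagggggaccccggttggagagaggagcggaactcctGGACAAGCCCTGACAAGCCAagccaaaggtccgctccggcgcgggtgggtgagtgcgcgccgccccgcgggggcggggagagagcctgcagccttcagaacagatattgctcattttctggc
SESN1: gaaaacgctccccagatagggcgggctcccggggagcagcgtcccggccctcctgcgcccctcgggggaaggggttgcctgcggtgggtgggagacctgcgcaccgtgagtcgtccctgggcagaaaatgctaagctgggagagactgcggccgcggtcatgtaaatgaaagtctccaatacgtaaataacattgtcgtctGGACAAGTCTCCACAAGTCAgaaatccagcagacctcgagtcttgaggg
The windows of CDKN1A, BTG2 and TP53I3 held no such match, which says only that these letters are not in those windows. A match is a description of the sequence, not a measured binding site.

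The cell lines had their own markers. All 6 liver markers were listed in every HepG2 and Huh7 table, at means of 749 normalized counts or more. All 6 B cell markers were listed in every WEHI-231 table, at means of 6383 or more. EZH2 checks the hairpins. It averaged 152 ± 5.23 normalized counts in Huh7 shEZH2 and 961 ± 56.2 in Huh7 shControl (SD, n = 2 each). In the HepG2 libraries labelled shEZH2, EZH2 averaged 1597 against 854 in shControl, higher by 0.90 on the log2 scale (SE 0.38, adjusted p = 0.0337) in the authors' deposited table, so these are called by their label only. SREBF2 was lower with #664, #665 and #667 in the authors' deposited tables, at -1.58, -1.08 and -2.35 (SE 0.06, 0.12 and 0.42).

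Control levels of some of these genes were far apart between the lines. A group's mean was rebuilt from the authors' deposited table (mean and fold change) and divided by the table's summed mean, given per 1000000 (ppm). The tables were normalized separately. CDKN1A, the p21 inhibitor of cyclin-dependent kinases, stood at 70.1 to 72.8 ppm in HepG2 DMSO over the 4 authors' deposited tables, against 4.33 in Huh7 DMSO. In the hairpin experiments CDKN1A stood at 85.8 to 90.7 ppm in HepG2 shControl, against 12.7 in Huh7 shControl, from the authors' deposited tables. FDXR, the mitochondrial ferredoxin reductase, was at 104 to 108 ppm in HepG2 DMSO and 6.41 in Huh7 DMSO, again from the authors' deposited tables. MDM2 differed far less, at 93.1 to 104 ppm in HepG2 DMSO and 73.0 in Huh7 DMSO in the authors' deposited tables. TP53I3 and BTG2 were lower in HepG2 in the DMSO libraries, but not in the hairpin controls, in the authors' deposited tables. TP53I3 stood at 19.0 to 19.9 ppm in HepG2 DMSO and 39.4 in Huh7 DMSO. In shControl it stood at 27.7 to 29.3 ppm in HepG2 and 29.1 in Huh7. BTG2 stood at 11.01 to 11.4 ppm in HepG2 DMSO and 18.8 in Huh7 DMSO. In shControl BTG2 was higher in HepG2, at 20.0 to 21.2 ppm against 14.3 in Huh7. No test was made between lines, because the rebuilt levels carry no error.

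In HepG2, MS7126 raised 3 of the 10 genes and lowered none: CDKN1A, GADD45A, a growth arrest and DNA damage protein, and AEN, a nuclease of p53-dependent apoptosis. MDM2 and the other 6 were not called. At an adjusted p under 0.05, the authors' deposited table called 7.44% of 12923 tested genes higher, 8.06% lower and 15.5% in either direction. The median log2 fold change of the 10 genes was 0.02, against 0.01 over all tested genes in the authors' deposited table.

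Rebuilt from the authors' deposited table, CDKN1A averaged 2802 normalized counts with MS7126 and 1208 with DMSO, higher by 1.21 on the log2 scale (SE 0.17, adjusted p = 3.23e-11). GADD45A averaged 1423 with MS7126 and 783 with DMSO, at 0.86 (SE 0.17, adjusted p = 8.37e-06) in the authors' deposited table. AEN averaged 1876 with MS7126 and 973 with DMSO, at 0.95 (SE 0.16, adjusted p = 1.95e-07) in the authors' deposited table. These 3 are the same order of size, and their 95% intervals overlap (0.89 to 1.54, 0.53 to 1.19 and 0.63 to 1.26 in the authors' deposited table).

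The feedback gene MDM2 averaged 1713 with MS7126 and 1748 with DMSO, a log2 fold change of -0.03 with a 95% interval of -0.31 to 0.25 in the authors' deposited table. That interval lies below the interval of each of the 3 genes called higher. BTG2, an antiproliferative protein, averaged 114 with MS7126 and 188 with DMSO, at -0.72 (SE 0.38, adjusted p = 0.213) in the authors' deposited table. FAS, the death receptor, was listed with few counts, 72.3 with MS7126 and 68.9 with DMSO, and its interval ran from -0.96 to 1.09 in the authors' deposited table, so a change of 2-fold either way was barely detectable at this depth. SESN1, a sestrin of the antioxidant response that restrains mTORC1, TP53I3, a quinone oxidoreductase, FDXR and ZMAT3, an RNA-binding protein, lay between -0.20 and 0.16 in the authors' deposited table.

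**Figure D1:**
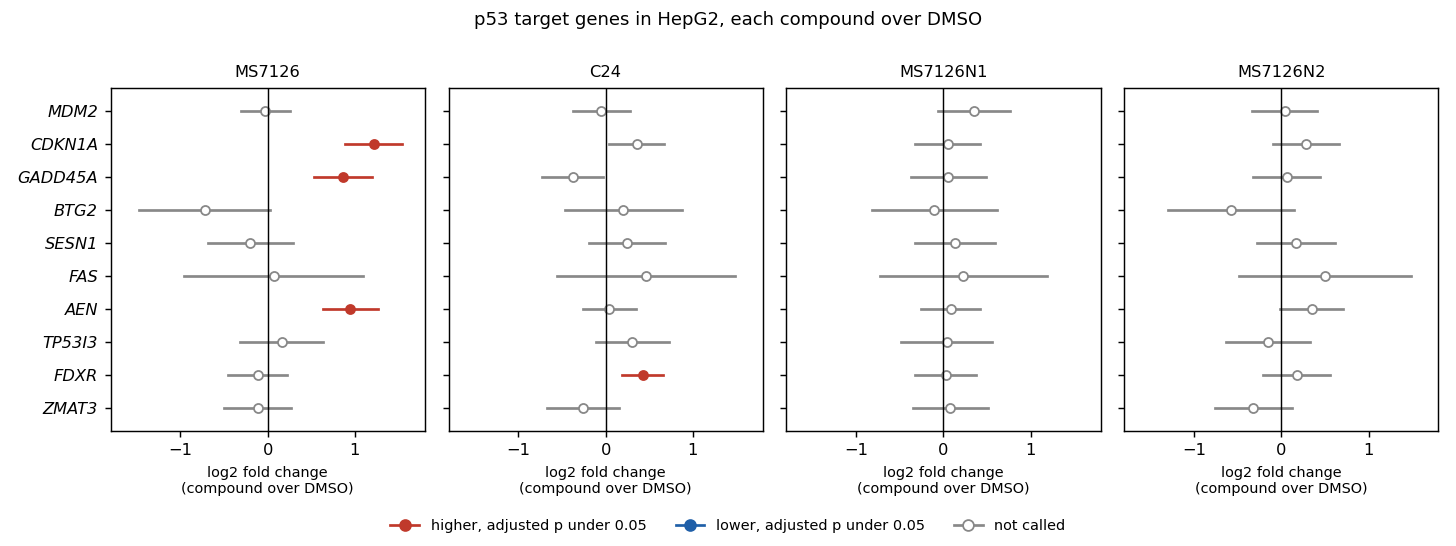
Log2 fold change of the 10 p53 target genes in HepG2 with each compound over DMSO, from the authors' deposited tables (points, with 95% intervals as bars, 2 libraries a group; all 4 panels share the DMSO libraries). CDKN1A, GADD45A and AEN are filled red with MS7126, FDXR with C24, and no gene is filled with MS7126N1 or MS7126N2.

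The matched inhibitor and the analogs addressed whether these responses belong to degrader treatment. All 4 comparisons share the DMSO libraries, and dose and time were the same. With C24, FDXR was the gene called, averaging 2429 with C24 and 1807 with DMSO, at 0.43 (SE 0.12, adjusted p = 0.0108) in the authors' deposited table. There 3.01% of 8146 tested genes were called higher and 7.02% in either direction, and FAS had no adjusted p. CDKN1A averaged 1554 with C24 and 1215 with DMSO, at 0.35 (SE 0.16, adjusted p = 0.179), and GADD45A 614 with C24 and 799 with DMSO, at -0.38 (SE 0.18, adjusted p = 0.208), in the authors' deposited table. With MS7126N1 and MS7126N2 none of the 10 was called, against 0.159% and 0.703% of all tested genes, and none had an unadjusted p under 0.05 in the authors' deposited tables. No other tool could be run on these tables. CDKN1A averaged 1216 with MS7126N1 and 1177 with DMSO in the authors' deposited table, and 1446 with MS7126N2 and 1186 with DMSO in its own.

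CDKN1A, GADD45A and AEN were then compared between compounds, as differences of the authors' deposited table values with p-values adjusted jointly over all genes and the 5 compound pairs of the series. MS7126 minus C24 gave 0.86 for CDKN1A (95% interval 0.41 to 1.31, adjusted p = 0.0105), 1.24 for GADD45A (0.76 to 1.72, adjusted p = 4.71e-05) and 0.90 for AEN (0.47 to 1.34, adjusted p = 0.00344), from the authors' deposited tables. Of all genes, 4.16% differed in that pair. Against MS7126N1, where 3.14% of genes differed, MS7126 was higher by 1.17 for CDKN1A (0.67 to 1.66, adjusted p = 0.000392) and by 0.87 for AEN (0.40 to 1.33, adjusted p = 0.0131), from the authors' deposited tables. GADD45A differed there by 0.81 (0.27 to 1.35), with an adjusted p of 0.0933. Against MS7126N2, where 1.64% of genes differed, CDKN1A alone of the 10 passed, at 0.93 (0.43 to 1.43, adjusted p = 0.0143) from the authors' deposited tables. AEN differed there by 0.60 (0.12 to 1.08, adjusted p = 0.25) and GADD45A by 0.80 (0.29 to 1.31, adjusted p = 0.0637), from the authors' deposited tables. FDXR, the gene called with C24, was lower with MS7126 than with C24 by a difference of -0.54 (-0.95 to -0.13, adjusted p = 0.207), which did not pass. These tests add the variances of both comparisons and ignore the shared DMSO libraries. With a covariance of 0.5 times the product of the standard errors, 3 genes passed against MS7126N2 in place of 1.

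In Huh7, MS7126 raised CDKN1A, GADD45A, BTG2 and AEN and lowered SESN1, 5 of the 9 listed genes. The authors' deposited table called 17.5% of 15956 tested genes higher, 16.3% lower and 33.9% in either direction, larger shares than in the HepG2 table. The members' median was 0.28, against -0.01 over all tested genes in the authors' deposited table.

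CDKN1A averaged 193 normalized counts with MS7126 and 90.7 with DMSO in Huh7, at 1.09 (SE 0.34, adjusted p = 0.00500) in the authors' deposited table. GADD45A averaged 1022 with MS7126 and 427 with DMSO, at 1.26 (SE 0.21, adjusted p = 4.85e-08) in the authors' deposited table. BTG2 averaged 956 with MS7126 and 394 with DMSO, at 1.28 (SE 0.19, adjusted p = 3.24e-10) in the authors' deposited table. These 3 encode inhibitors of cell cycle progression and came out of similar size. AEN rose less, to 1152 with MS7126 against 888 with DMSO, at 0.38 (SE 0.15, adjusted p = 0.0318) in the authors' deposited table. SESN1 went the other way, averaging 144 with MS7126 and 335 with DMSO, at -1.22 (SE 0.26, adjusted p = 2.57e-05) in the authors' deposited table. MDM2 was not called, with 1852 against 1530 with DMSO, at 0.28 (SE 0.16, adjusted p = 0.183) in the authors' deposited table. TP53I3, FDXR and ZMAT3 lay between -0.23 and 0.12 and were not called in the authors' deposited table.

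The response to MS7126 was set side by side in both lines, with a test of the difference that was added after the values were seen, and with treatment times that differ by the labels. BTG2 differed: Huh7 minus HepG2 gave 2.00 (95% interval 1.16 to 2.84, adjusted p = 0.000246), from the authors' deposited tables. Across all 16334 genes in both tables, 5.71% differed. CDKN1A did not pass, at -0.12 (-0.86 to 0.61), nor did GADD45A, at 0.40 (-0.14 to 0.93), from the authors' deposited tables. SESN1 had a difference of -1.02 (-1.72 to -0.31, adjusted p = 0.0718) and AEN one of -0.57 (-0.997 to -0.14, adjusted p = 0.11), from the authors' deposited tables. Line, treatment time and table cannot be told apart here.

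**Figure D2:**
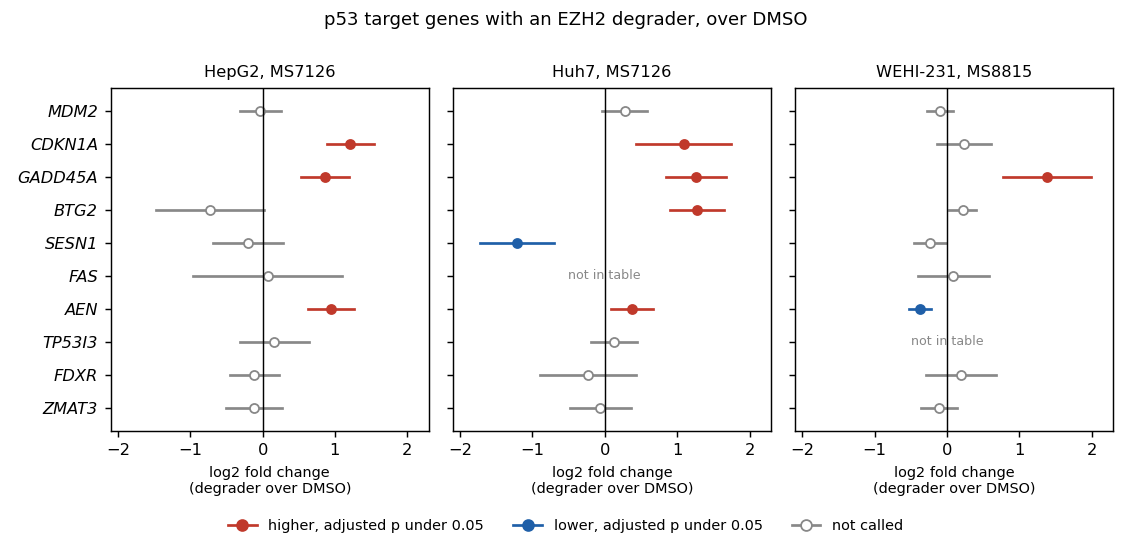
Log2 fold change of the 10 p53 target genes with MS7126 in HepG2 and Huh7 and with MS8815 in WEHI-231, each over DMSO, from the authors' deposited tables (points, with 95% intervals as bars, 2 libraries a group). GADD45A is filled red in all 3 panels, AEN red in both liver lines and blue in WEHI-231, and BTG2 red in Huh7 alone.

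Huh7 shEZH2 is the experiment with counts per library, and its EZH2 RNA stood at 15.8% of shControl. CDKN1A, MDM2 and ZMAT3 rose and SESN1 and AEN fell, while GADD45A and BTG2, which had risen in this line with MS7126, were not called. By edgeR's quasi-likelihood test 5 of the 9 listed genes were called at an adjusted p under 0.05, against 38.7% of 14581 tested genes, with 19.5% higher and 19.3% lower. The share of these genes is therefore near the background, and the genes are given one by one.

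CDKN1A had 272 and 303 normalized counts in the shEZH2 libraries, against 151 and 132 in the shControl libraries. Every shEZH2 library lay above both shControl libraries, at a log2 difference of 1.02 (SE 0.11, edgeR adjusted p = 1.16e-06). MDM2 had 821 and 837 in shEZH2 and 697 and 668 in shControl. These groups did not overlap either, at 0.28 (SE 0.05, edgeR adjusted p = 0.000454). ZMAT3 had 352 and 304 in shEZH2 and 261 and 279 in shControl, at 0.28 (SE 0.09, edgeR adjusted p = 0.0218). One shEZH2 library thus lay close to the shControl libraries. SESN1 had 102 and 101 in shEZH2 and 194 and 200 in shControl. The groups were far apart, with little spread within either, at -0.95 (SE 0.11, edgeR adjusted p = 6.16e-06). AEN had 303 and 275 in shEZH2 and 347 and 334 in shControl, at -0.24 (SE 0.08, edgeR adjusted p = 0.0304).

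The groups did not overlap for 6 of the 9 genes, while they did not overlap for 68.5% of all tested genes. The sixth was TP53I3, with 296 and 287 in shEZH2 and 342 and 308 in shControl, which edgeR did not call at -0.16 (adjusted p = 0.152). GADD45A had 305 and 311 in shEZH2 and 347 and 300 in shControl, and BTG2 had 176 and 150 in shEZH2 and 159 and 161 in shControl. Both overlapped, at -0.07 (SE 0.09) and 0.03 (SE 0.11). FDXR had 64.8 and 50.1 in shEZH2 and 52.7 and 58.0 in shControl, which also overlapped. AEN and ZMAT3 rest on the tool and on single libraries. DESeq2 gave them adjusted p-values of 0.22 and 0.151, the authors' deposited table, which called 23.4% of its genes, did not call them either, and edgeR did not call AEN without shControl replicate 1 (adjusted p = 0.132) or shEZH2 replicate 2 (0.288), nor ZMAT3 without shControl replicate 1 (0.142) or shEZH2 replicate 1 (0.296).

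**Figure D3:**
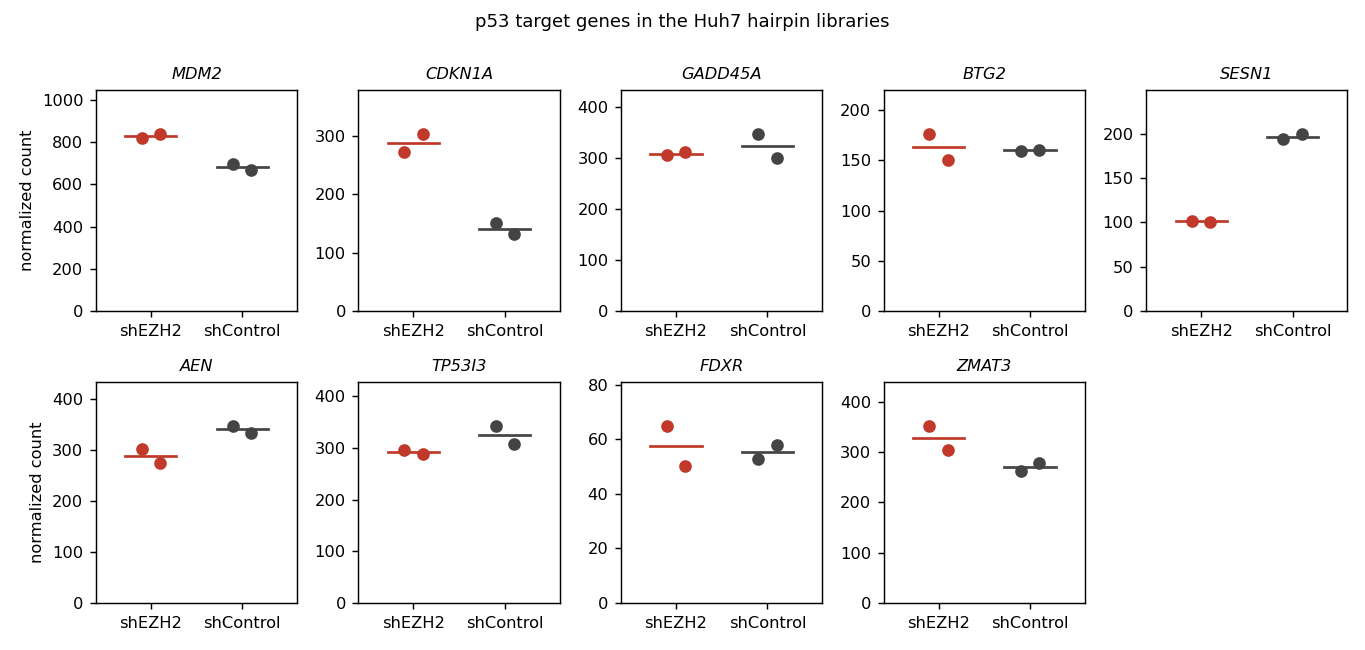
Normalized counts of 9 p53 target genes in each Huh7 hairpin library (points, 2 shEZH2 libraries left and 2 shControl libraries right; lines are group means; axes start at 0). CDKN1A lies higher in both shEZH2 libraries and SESN1 lower, while the points of GADD45A, BTG2 and FDXR overlap.

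The 4 HepG2 hairpin comparisons showed mostly lower levels of these 10 p53 targets. They all use the same 2 shControl libraries, so a high or low value in these moves all 4 alike, and the 4 are not independent. In the libraries labelled shEZH2, 7 of the 10 were lower and 2 higher, against 28.6% and 28.4% of 17348 tested genes in the authors' deposited table. With #664, 6 were lower and 3 higher, against 26.8% and 24.9% of all genes tested in the authors' deposited table. With #665, 7 were lower and none higher, against 20.0% and 18.7% in the authors' deposited table, and with #667, 7 were lower and 1 higher, against 19.3% and 18.6%. The share called in either direction was 57.0% with the label shEZH2, 51.7% with #664, 38.8% with #665 and 37.8% with #667 in the authors' deposited tables.

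Among the genes of cell cycle arrest, CDKN1A averaged 1792 normalized counts in the libraries labelled shEZH2 and 2724 in shControl, at -0.60 (SE 0.07, adjusted p = 6.22e-17) in the authors' deposited table. With #664 CDKN1A averaged 2450 against 3648 in shControl, at -0.57 (SE 0.05, adjusted p = 4.73e-25) in the authors' deposited table. With #665 it averaged 1911 against 3068 in shControl, at -0.68 (SE 0.10, adjusted p = 9.83e-10), and with #667 1695 against 3062, at -0.85 (SE 0.11, adjusted p = 1.22e-13), in the authors' deposited tables. CDKN1A was thus lower than shControl with each hairpin, while the differences between hairpins were not tested. BTG2 was lower, at -0.67 (SE 0.14) with the label shEZH2, -0.50 (SE 0.11) with #664, -0.43 (SE 0.15, adjusted p = 0.0123) with #665 and -1.26 (SE 0.17) with #667 in the authors' deposited tables. GADD45A was mixed, called lower with the label shEZH2 at -0.36 (SE 0.07) and with #665 at -0.39 (SE 0.10) in the authors' deposited tables. It was not called with #664, at 0.11 (adjusted p = 0.0621), or with #667, at -0.04 (adjusted p = 0.828), in the authors' deposited tables.

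FAS, TP53I3, AEN and FDXR were each called lower with all 4 hairpins. FAS averaged 114 normalized counts in the libraries labelled shEZH2 and 352 in shControl, at -1.63 (SE 0.22, adjusted p = 1.60e-12) in the authors' deposited table. It was at -0.69 (SE 0.15) with #664, -0.71 (SE 0.20) with #665 and -1.003 (SE 0.23) with #667 in the authors' deposited tables. TP53I3 averaged 432 in the libraries labelled shEZH2 and 879 in shControl, at -1.02 (SE 0.12), and was at -0.71 (SE 0.10), -0.52 (SE 0.13) and -1.14 (SE 0.15) with #664, #665 and #667 in the authors' deposited tables. AEN was at -0.53 (SE 0.07) with the label shEZH2, and at -0.27 (SE 0.05), -0.35 (SE 0.11) and -0.71 (SE 0.11) with #664, #665 and #667 in the authors' deposited tables. FDXR averaged 1964 with #667 and 4466 in shControl, at -1.19 (SE 0.11, adjusted p = 1.07e-25) in the authors' deposited table. With #665 FDXR was at -0.82 (SE 0.12), with #664 at -0.20 (SE 0.04) and with the label shEZH2 at -0.53 (SE 0.06) in the authors' deposited tables. For FDXR the hairpins against SREBP2 therefore spanned a wide range, though the differences between hairpins were not tested.

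MDM2 and ZMAT3 were called higher with some hairpins. MDM2 averaged 4155 in the libraries labelled shEZH2 and 3215 in shControl, at 0.37 (SE 0.06), in the authors' deposited table. It was at 0.30 (SE 0.04) with #664, 0.04 (SE 0.10, adjusted p = 0.782) with #665 and 0.29 (SE 0.10, adjusted p = 0.01) with #667 in the authors' deposited tables. ZMAT3 was at 0.66 (SE 0.08) with the label shEZH2 and 0.58 (SE 0.07) with #664, but was not called with #665, at -0.22, or #667, at -0.20, in the authors' deposited tables. SESN1 was called higher with #664, at 0.35 (SE 0.07), and lower with #667, at -0.37 (SE 0.14), in the authors' deposited tables. Among fibroblast markers, COL1A2 was not listed and COL1A1 was lower in all 4 authors' deposited tables, at -3.54, -2.70, -1.14 and -1.61 with the label shEZH2, #664, #665 and #667. The part of such differences between the stable lines in the p53 targets was not tested.

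**Figure D4:**
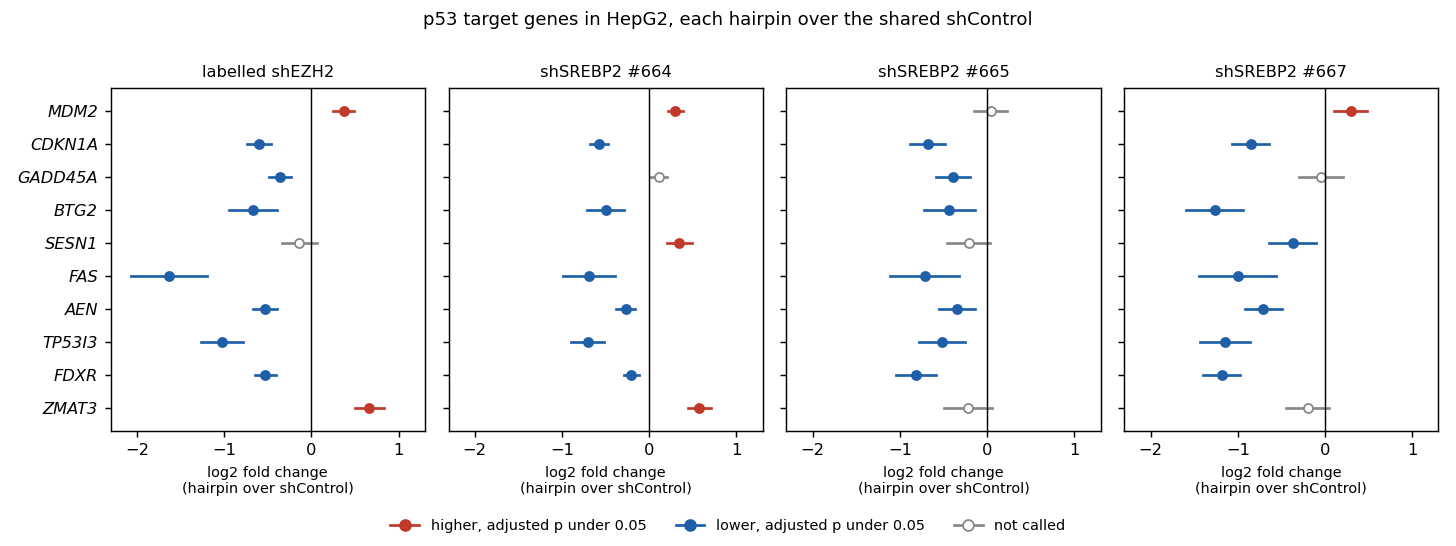
Log2 fold change of the 10 p53 target genes in HepG2 with each hairpin over the same 2 shControl libraries, from the authors' deposited tables (points, with 95% intervals as bars, 2 libraries a group). CDKN1A, BTG2, FAS, AEN, TP53I3 and FDXR are filled blue in each panel, and MDM2 is filled red with the label shEZH2, #664 and #667.

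EZH2 hairpins in both lines were also set side by side with a test added after the values were seen. Huh7 minus HepG2 gave 1.63 for CDKN1A (95% interval 1.27 to 1.99, adjusted p = 1.02e-17), with fold changes of 1.02 in Huh7 and -0.60 in the HepG2 libraries labelled shEZH2, from the authors' deposited tables. MDM2 had no called difference, at -0.09 (-0.29 to 0.12), from the authors' deposited tables. A difference was called for 51.5% of the 11878 genes found in both, and EZH2 itself was lower in Huh7 shEZH2 and higher in the HepG2 libraries so labelled.

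In WEHI-231, MS8815 changed 2 of the 9 listed genes. Gadd45a averaged 212 normalized counts with MS8815 and 81.2 with DMSO, at 1.38 (SE 0.31, adjusted p = 0.000143) in the authors' deposited table. Aen, the gene called higher with MS7126 in both liver lines, averaged 2275 with MS8815 and 2958 with DMSO, at -0.38 (SE 0.08, adjusted p = 3.26e-05) in the authors' deposited table. There 5.34% of 10671 tested genes were called higher, 11.8% lower and 17.1% in either direction. Cdkn1a averaged 377 with MS8815 and 319 with DMSO, at 0.24 (SE 0.19, adjusted p = 0.463), and Mdm2 1681 with MS8815 and 1799 with DMSO, at -0.10 (SE 0.09, adjusted p = 0.572), in the authors' deposited table. Neither was called. Btg2, at 0.21 (SE 0.10, adjusted p = 0.128), and Sesn1, at -0.24 (SE 0.11, adjusted p = 0.141), had unadjusted p-values under 0.05 but were not called in the authors' deposited table. With EPZ-6438 and MS8815N none of the 9 was called, against 0.243% and 0.119% of all tested genes, and none had an unadjusted p under 0.05 in the authors' deposited tables.

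Between compounds at the same dose and time, MS8815 minus EPZ-6438 gave -0.37 for Aen (95% interval -0.58 to -0.16, adjusted p = 0.0267), from the authors' deposited tables, where 3.07% of genes differed. Gadd45a averaged 100.01 with EPZ-6438 and 82.9 with DMSO in the authors' deposited table, and MS8815 minus EPZ-6438 was 1.11 (0.15 to 2.08, adjusted p = 0.359), which did not pass. Against MS8815N, where 2.15% of genes differed, none of the 9 passed the joint adjustment. The differences there were 1.10 for Gadd45a (0.00 to 2.21, adjusted p = 0.551), -0.32 for Aen (-0.55 to -0.09, adjusted p = 0.142) and 0.62 for Cdkn1a (0.05 to 1.20, adjusted p = 0.443), from the authors' deposited tables. Unadjusted p-values under 0.05 were obtained there for Aen, Cdkn1a and Btg2, and no other tool could be run. With the covariance of 0.5 times the product of the standard errors, 2 genes passed in each of these pairs.

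The wider pathway was read from lists of 35 other p53 targets, 12 p53 regulators, 16 cell cycle genes repressed through p21 and the DREAM complex, and 18 ATF4 targets. With MS7126 in HepG2, 12 of 34 tested other p53 targets were higher and 1 lower, with a median of 0.29, against 7.44% and 8.06% of all tested genes in the authors' deposited table. The largest there were PMAIP1, the proapoptotic NOXA, at 2.15 (SE 0.39), SESN2, a sestrin, at 2.06 (SE 0.21), TIGAR, a regulator of glycolysis, at 1.68 (SE 0.39), and GDF15, a stress cytokine, at 1.67 (SE 0.13), all from the authors' deposited table. In Huh7, 11 of 30 were higher and 3 lower with MS7126, with a median of 0.44, against 17.5% and 16.3% of all tested genes in the authors' deposited table. PLK2, a polo-like kinase, was at 2.89 (SE 0.27), GDF15 at 2.69 (SE 0.12) and PLK3 at 2.55 (SE 0.34), all from the authors' deposited table. In Huh7 shEZH2, edgeR called 11 of 29 higher and 7 lower, against 19.5% and 19.3% of all genes, led by TP53I11 at -0.81 (SE 0.09) and FBXO22 at -0.71 (SE 0.05). The authors' deposited table for these libraries, which called 23.4% of all genes, called 7 of the 29 higher and 4 lower. With MS8815 in WEHI-231, 3 of 23 were higher and 3 lower, against 5.34% and 11.8% of all tested genes in the authors' deposited table. Sesn2 was there at 1.23 (SE 0.12) and Trp53inp1 at 0.62 (SE 0.14). In the HepG2 libraries labelled shEZH2, 12 of 34 tested other p53 targets were lower and 9 higher (median 0.02). With #664, 11 of 34 were lower and 10 higher (median 0.03). With #665, 15 of 34 were lower and 6 higher (median -0.29), and with #667 10 of 33 and 4 (median -0.19). Of all tested genes in the authors' deposited tables, 28.6%, 26.8%, 20.0% and 19.3% were called lower there. The shares called higher were 28.4%, 24.9%, 18.7% and 18.6%. Of the p53 regulators, 1 was higher and 2 lower of 12 with MS7126 in HepG2, 2 and 2 in Huh7, and 1 and 2 with MS8815 in the authors' deposited tables. The share of regulators called in either direction was thus 25% with MS7126 in HepG2, 33.3% in Huh7 and 25% with MS8815, against 15.5%, 33.9% and 17.1% of all tested genes in the authors' deposited tables, so the share in Huh7 was at the background. EdgeR called 4 of these 12 higher and none lower in Huh7 shEZH2, which is 33.3% against 38.7% of all genes.

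Other lists moved with the degraders. Of the 16 cell cycle genes, 10 were lower and none higher with MS7126 in HepG2 (median -0.74), 13 and none in Huh7 (median -0.65), and 9 and none with MS8815 in WEHI-231 (median -0.21) in the authors' deposited tables. The shares of all tested genes called lower there were 8.06%, 16.3% and 11.8%. None of the 16 was called with C24, MS7126N1, MS7126N2, EPZ-6438 or MS8815N in the authors' deposited tables. These called 7.02%, 0.159%, 0.703%, 0.243% and 0.119% of all tested genes. In Huh7 shEZH2, where CDKN1A was higher, edgeR called 6 lower and 3 higher, against 19.3% and 19.5% of all genes, with a median of -0.05. The authors' deposited table for these libraries, which called 23.4% of all genes, called 2 lower and 1 higher. In the HepG2 hairpin libraries, where CDKN1A was lower, 10 of the 16 cell cycle genes were lower and 4 higher with the label shEZH2, 12 and 3 with #664, 11 and 3 with #665, and 10 and 1 with #667 in the authors' deposited tables. Of all tested genes, 28.6%, 26.8%, 20.0% and 19.3% were called lower there, and 28.4%, 24.9%, 18.7% and 18.6% higher. The part of CDKN1A in the cell cycle genes was not tested. Of the ATF4 targets, 15 of 17 were higher with MS7126 in HepG2 (median 2.06), 16 of 18 in Huh7 (median 1.78) and 12 of 14 with MS8815 (median 0.92), and none lower, in the authors' deposited tables. The shares of all tested genes called higher there were 7.44%, 17.5% and 5.34%. With MS7126N2, where none of the 10 p53 targets was called, 8 of 17 ATF4 targets were higher in the authors' deposited table. There 0.703% of all tested genes were called in either direction. In Huh7 shEZH2, edgeR called 2 ATF4 targets higher and 10 lower of 18, against 19.5% and 19.3% of all genes. In the authors' deposited table, which called 23.4% of all genes, 1 was higher and 9 were lower. The ATF4 list was drawn up without the 10 genes, so its lack of overlap with them was set in advance. SESN2 stands both in the ATF4 list and among the other p53 targets. The part of ATF4 in the p53 targets was not tested.

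Liver markers moved with MS7126 too: 4 of 6 were lower in HepG2 (median -0.86) and 5 of 6 in Huh7 (median -0.93), none higher, in the authors' deposited tables. These called 8.06% and 16.3% of all tested genes lower. With MS8815 in WEHI-231, 5 of the 6 B cell markers were lower and none higher (median -0.16) in the authors' deposited table. There 11.8% of all tested genes were called lower. In the HepG2 hairpin libraries 5 of the 6 were higher and 1 lower with the label shEZH2, 4 and 1 with #664, 1 and 3 with #665, and 4 and 2 with #667 in the authors' deposited tables. There 28.4%, 24.9%, 18.7% and 18.6% of all tested genes were called higher, and 28.6%, 26.8%, 20.0% and 19.3% lower. In Huh7 shEZH2, edgeR called 2 of the 6 higher and 4 lower, against 19.5% and 19.3% of all genes. In the authors' deposited table, which called 23.4% of all genes, 1 was higher and 3 were lower. Markers of other cells had means of at most 92.7 normalized counts in the HepG2 tables, the authors' deposited ones, except COL1A1, which had means of 659 to 812 normalized counts in the compound experiment and was lower with MS7126 and with C24 in the authors' deposited tables. In Huh7 some were listed and called. With MS7126, the fibroblast marker COL1A1 was at 2.36 (mean 46.9 normalized counts), the endothelial marker PECAM1 at -0.89 (mean 257) and PTPRC, from the B cell list, at 4.51 (mean 32.2), in the authors' deposited table. In Huh7 shEZH2, COL1A2 was at 3.08 (mean 307) and PECAM1 at -1.33 (mean 43.6) in the authors' deposited table. In WEHI-231 with MS8815 the 2 endothelial markers had means of 134 and 1173 and were not called in the authors' deposited table. The part of these shifts in the p53 targets was not tested. In bulk RNA, fewer cells with a high level and less RNA per cell cannot be told apart.

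**Figure D5:**
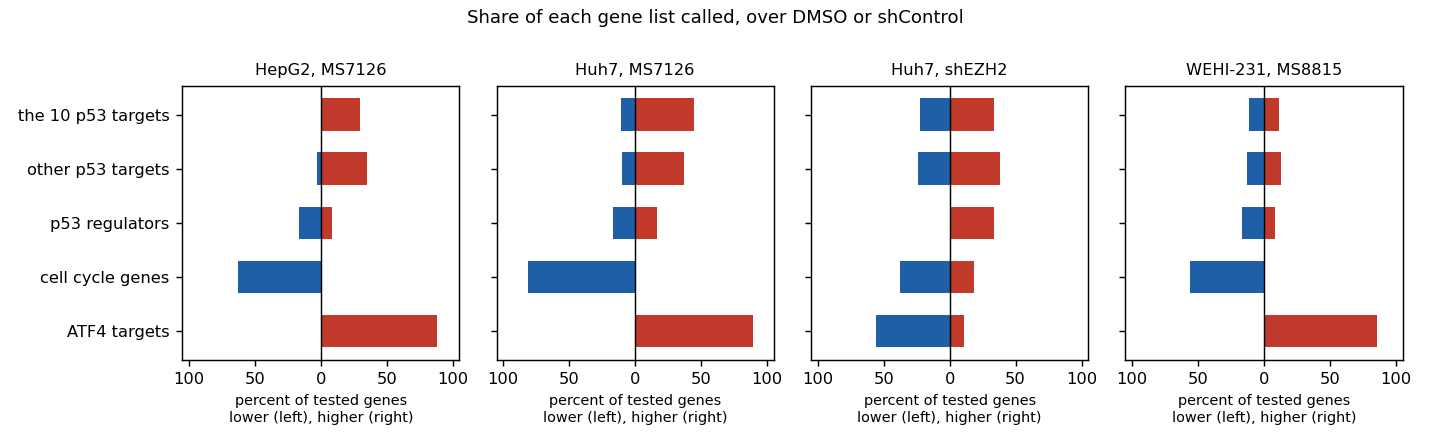
Percent of tested genes of each list called lower (bars to the left, blue) and higher (bars to the right, red) with MS7126 over DMSO in HepG2 and Huh7, with shEZH2 over shControl in Huh7 (edgeR) and with MS8815 over DMSO in WEHI-231. The cell cycle genes extend to the left and the ATF4 targets to the right in the 3 degrader panels, while both p53 target lists extend to both sides in Huh7 and WEHI-231.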

How the data were processed

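Members and gene lists were chosen with earlier results of these data known. STAR 2.4.2, Salmon and the builds GRCh38 and mm10 are named per the submitters' processing notes; strand and library kit: not given in the sources used here. The authors' deposited tables hold, per the file headers, for every gene the mean normalized signal, the log2 fold change, its error, their quotient as a score, and p-values before and after adjustment. In 12 of the 13 tables only these were used, called at an adjusted p under 0.05, with group means rebuilt from the mean and the fold change. In Huh7 shEZH2 such rebuilt control means differed by at most 0.0951%, for the genes described, from those measured with DESeq2 size factors.

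For that experiment each library's estimated counts, as the authors deposited them, were also used. These counts were rounded, 20 of 15228 rows carrying dates in place of symbols were left out, and genes passing filterByExpr were tested with edgeR 4.0.16 in R 4.3.3 (quasi-likelihood, TMM, no block); DESeq2 1.42.0 was an alternative. Normalized counts printed per library were divided by the library size times its TMM factor and scaled to the mean library. Totals were 11240538 and 11954322 in shEZH2 and 11300070 and 10106193 in shControl; the depth of the other libraries is unknown. The libraries of a group differed little beyond counting noise (chi-square per degree of freedom 1.50 in shEZH2 and 1.58 in shControl; biological coefficient of variation 0.0187), so these p-values hold little spread beyond counting.

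Named genes are the 10 members in every comparison, and the 4 (MS7126) or 2 (Huh7 shEZH2, MS8815) largest absolute changes among called other targets and regulators with a mean of at least 100; some genes under this rule are not reported here. On counts simulated for Huh7 shEZH2 (14431 genes) edgeR found 98 of 102 seeded 2-fold changes and 97 of 98 seeded 4-fold changes, and 5 of its 200 calls were false. The difference step, simulated for MS7126 minus C24 in HepG2 (9630 genes, a true difference of 2 on the log2 scale), recovered 176 of 200 with 13 false calls of 189.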

Additional observations from a re-analysis of the deposited data

Results flagged for a closer look

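With MS7126, BTG2 differed between the liver lines: its log2 fold change in Huh7 minus that in HepG2 was 2.00 (95% interval 1.16 to 2.84, adjusted p = 0.000246 over 16334 genes), from the authors' deposited tables. The treatment times differ by the labels, and line and time cannot be told apart. In the libraries labelled shEZH2, the log2 fold changes in Huh7 minus those in HepG2 differed for 5 of the 9 p53 targets in both tables, from the authors' deposited tables. The differences were 1.63 for CDKN1A (adjusted p = 1.02e-17), 0.87 for TP53I3 (adjusted p = 1.03e-05), 0.70 for BTG2 (adjusted p = 0.00736), -0.82 for SESN1 (adjusted p = 0.000729) and -0.38 for ZMAT3 (adjusted p = 0.0401), from the authors' deposited tables. Of all genes 51.5% differed in this way, so the share of these p53 targets is near the background. EZH2 was not lower in the HepG2 libraries so labelled. Groups of 2 libraries were not searched for outlying libraries.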

How the results depend on the processing

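In Huh7 shEZH2, edgeR's 5 called genes became 3 with DESeq2 and 3 with the authors' deposited values (CDKN1A and MDM2 higher, SESN1 lower), and ranged from 3 to 5 when each library was left out in turn; the lone library left was then assumed to vary like the other group. Samples with the same replicate number did not deviate together (correlation 0.0529 over 11292 genes), so the numbers do not pair the libraries, and a fit with the replicate as a block also called 5. DESeq2 size factors and no filter on low counts gave 5 as well. With C24 in HepG2 the 1 call became 0 at an adjusted p under 0.01. With a covariance of 0.5 times the product of the standard errors, calls went to 3 for MS7126 minus MS7126N2, to 2 for MS8815 minus EPZ-6438 and to 2 for MS8815 minus MS8815N. Adjusting over all genes or centring on the median gene left the counts of the other comparisons within 1.5 times. Over single genes and settings, 344 values kept their call, 7 gained one and 8 lost one, and no called value changed sign. No paired analysis was possible in the other tables because they were used without values per library. Group sizes of 2, unknown depth outside Huh7 shEZH2 and shared controls limit all comparisons.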
